A study of Homo sapiens with 14 samples.

Results

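The replication-dependent histone genes were examined by AMUC-seq in HEK293T, a line of immortalized cells derived from human embryonic kidney, where 4-thiouridine (s4U) built into new RNA is read as cytidine after acrylonitrile treatment. Members were all protein-coding genes whose name in the gene tables starts with HIST1H, HIST2H, HIST3H or HIST4H, which gave 71 of 57820 genes, of which 20345 were protein-coding. They comprise 6 linker histone H1 genes and 17 H2A, 18 H2B, 15 H3 and 15 H4 genes. Chromosome 6 holds 55 of them, chromosome 1 holds 15 and chromosome 12 holds 1, and 18 histone pseudogenes with names of the same pattern were left out.

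In the conversion experiment, polyadenylated RNA of 4 groups was sequenced with 2 libraries each. The s4U-acrylonitrile-RNA came from cells fed s4U for 24 h and was treated with acrylonitrile, the s4U-RNA came from cells fed s4U for 24 h without acrylonitrile, the Con-acrylonitrile-RNA was treated with acrylonitrile but carried no s4U, and the Con-RNA had neither. The protocol gives 50 µM s4U for both fed groups, while the treatment label of s4U-acrylonitrile-RNA gives 500 µM. In the PDP experiment, cells received 0, 4 or 8 µM PDP, a pyridostatin analog that binds G-quadruplex structures, for 20 min before 500 µM s4U was added for 1 h. All 6 of those libraries (2 per dose) therefore carry s4U and were treated with acrylonitrile. Nothing in the labels says that replicates were separate cultures, so the spread that p-values are set against is that between libraries and may be technical.

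Libraries held 6074118 to 17228999 fragments in the conversion experiment and 9770956 to 22363992 in the PDP experiment, and the histone genes took 1536 to 9020 fragments of each. Of the 71 members, 60 had a fragment in the conversion experiment and 63 in the PDP experiment. The share of fragments in genes moved with the treatments: it was 70.7 and 68.4% in s4U-acrylonitrile-RNA, 85.8 and 88.3% in s4U-RNA, 70.9 and 68.6% in Con-acrylonitrile-RNA, and 90.6 and 90.6% in Con-RNA. It was 82.6 and 83.0% at 0 µM PDP, 89.7 and 88.8% at 4 µM, and 88.3 and 86.5% at 8 µM. The 2 s4U-RNA libraries stood apart from each other (mean chi-square per gene 58.2, against 1.07 to 6.23 in the other groups). Counts of members called in comparisons that rest on them are therefore given with and without each. Most values of single genes, and those of gene classes and context lists, are given with both only. In the PDP libraries the epithelial keratins KRT8 and KRT18 lay at 93.2 to 117 and 96.4 to 110 FPM (fragments of a gene per 1000000 fragments of the library) and VIM at 510 to 591, while PTPRC, CD3E, HBB and COL1A2, which mark blood cells and fibroblasts, were at 0 in every library. GATA3 and ESR1, also listed as markers not expected in these cells, lay at 55.2 to 72.0 and 0.0894 to 0.314 FPM.

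Replication-dependent histone genes supply the core histones and linker histones that package newly copied DNA, and their mRNAs accumulate during S phase and are degraded when replication stops. Most of these mRNAs are not polyadenylated. They end after a conserved stem-loop that is bound by the stem-loop binding protein SLBP and cut with the help of the U7 small nuclear RNP. Some members can also be read through to a downstream polyadenylation signal, which yields polyadenylated histone mRNA. All libraries here were made after selection of polyadenylated RNA, so the stem-loop-ended form was not what the protocol captures.

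The stem-loop sites of the 8 members on which the results below turn are shown first, because the ends of these transcripts set which form can be captured. Each run is 26 bases of GRCh37, 5′ to 3′ on the gene's strand, with the 16-base stem-loop in capitals.
HIST1H4C: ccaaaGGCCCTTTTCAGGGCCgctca
HIST2H4A: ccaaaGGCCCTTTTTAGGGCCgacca
HIST2H4B: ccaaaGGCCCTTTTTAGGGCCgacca
HIST1H2BD: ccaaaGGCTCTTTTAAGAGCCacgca
HIST1H2BK: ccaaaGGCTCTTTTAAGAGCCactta
HIST1H2AC: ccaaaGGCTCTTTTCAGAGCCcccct
HIST1H1E: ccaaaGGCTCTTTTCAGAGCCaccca
HIST1H1D: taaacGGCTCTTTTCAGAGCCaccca

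The HIST1H4C site (gene ENSG00000197061.3) lies at chr6:26104540-26104565 on the plus strand, past the annotated gene end at 26104518. HIST2H4A (ENSG00000183941.8) has its site at chr1:149804591-149804616 on the plus strand, inside a gene annotated from 149804221 to 149811339, and HIST2H4B (ENSG00000182217.7) has an identical 26-base run at chr1:149832330-149832355 on the minus strand. HIST1H2BD (ENSG00000158373.7) has its site at chr6:26158810-26158835, plus strand, and its annotation runs on to 26171577. For HIST1H2BK (ENSG00000197903.6) the site is at chr6:27114140-27114165, minus strand, and the annotated gene extends to 27106073. HIST1H2AC (ENSG00000180573.8) has its site at chr6:26124892-26124917, plus strand, and is annotated to 26139344. The sites of HIST1H1E (ENSG00000168298.4; chr6:26157318-26157343, plus strand) and HIST1H1D (ENSG00000124575.5; chr6:26234440-26234465, minus strand) end at the annotated gene ends, 26157343 and 26234440. HIST1H2BD, HIST1H2BK and HIST1H2AC thus have annotated genes that span 13229, 8547 and 14972 bases and close with the polyadenylation signal AATAAA.

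The stem-loop was present in all 68 members that had a coding end in the reference, 23 to 68 bases past the stop codon (median 36). The same pattern, searched on the gene's strand, was found within 150 bases past the stop codon in 40 of 19161 other protein-coding genes (0.209%). There were 10 distinct stem-loop sequences. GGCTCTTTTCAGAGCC was used by 40 members and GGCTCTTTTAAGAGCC by 9, while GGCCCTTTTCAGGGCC was used by 9 members, all H4 genes, and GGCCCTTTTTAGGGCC by HIST1H4I, HIST1H4K, HIST2H4A and HIST2H4B. AATAAA stood in the last 40 annotated bases of 14 of the 71 members (19.7%), against 11137 of 20274 other protein-coding genes (54.9%).

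A G-quadruplex motif (4 runs of at least 3 G with loops of up to 7 bases, either strand) lay within 2000 bases of the annotated start in 27 of 71 members (38.0%), against 72.3% of other protein-coding genes. In the bases just around the start, taken from the RefSeq promoter table for 66 members, the motif was found in 5 (7.58%, against 24.1% of all 27305 promoters). CCAAT on either strand was found in 56 (84.8%, against 35.7%), and TATAAA on either strand in 44 (66.7%, against 12%). These are matches of letters, not measured binding. The median GC content of the members' transcripts was 58.2%, against 49.1% for other protein-coding genes.

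In the PDP libraries the linker histone gene HIST1H1E drew more fragments than any other member. Its total level was 91.3 and 89.6 FPM at 0 µM, 102 and 68.0 FPM at 4 µM, and 101 and 80.5 FPM at 8 µM. It alone held 29.0 and 28.0% of the members' fragments at 0 µM, 26.2 and 19.8% at 4 µM, and 24.9 and 20.0% at 8 µM. FPM is not corrected for transcript length, so it ranks genes by fragments and not by molecules.

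Next came HIST1H2BK, an H2B gene, at 38.4 and 33.7 FPM at 0 µM, 34.9 and 37.7 at 4 µM, and 37.6 and 37.7 at 8 µM, whose ranges overlap between doses. The linker histone gene HIST1H1C lay at 25.6 and 25.9, 28.5 and 27.7, and 27.6 and 29.1 FPM at 0, 4 and 8 µM. HIST1H1D, another H1 gene, lay at 11.1 and 10.8, 15.1 and 8.55, and 15.9 and 6.75 FPM, and its replicates at 4 and 8 µM were further apart than the doses. The other 8 of the 12 members with most fragments at 0 µM (HIST1H2AG, HIST3H2A, HIST1H3J, HIST1H2AM, HIST2H2BE, HIST1H2BN, HIST1H2AH and HIST1H2AI) lay between 5.42 and 15.4 FPM in every library.

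**Figure D1:**
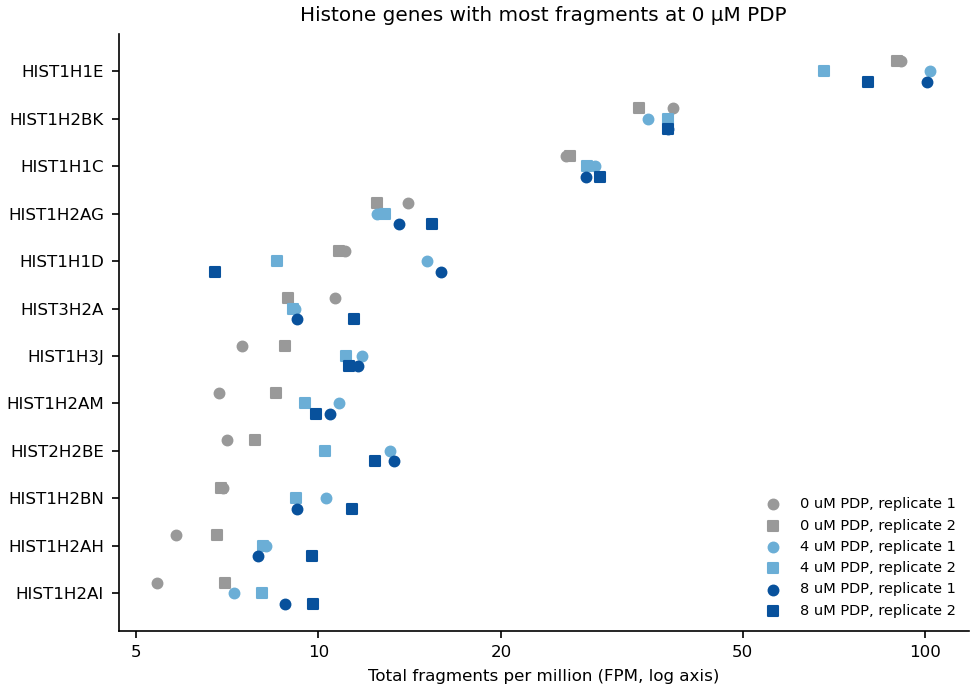
Total level (FPM, log axis) of the 12 histone genes with most fragments at 0 µM in each PDP library, coloured by dose (0, 4 and 8 µM), with circles for replicate 1 and squares for replicate 2. HIST1H1E sits highest, at 68.0 to 102 FPM, and the 2 replicates of HIST1H1D at 8 µM are 15.9 and 6.75 FPM.

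The conversion experiment asked whether acrylonitrile treatment recodes s4U in RNA, and its design also shows how the recovered amount of each histone mRNA differed between libraries. Levels are given as gene FPM, fragments of a gene per 1000000 fragments in genes, and tests are edgeR's quasi-likelihood test on fragment counts with TMM normalization, adjusted by the Benjamini-Hochberg method over all 18914 genes tested, of which 43 were members. Without s4U, acrylonitrile treatment went with more fragments from H1, H2A and H3 genes. Summed over members, histone genes had 374 and 369 gene FPM in Con-acrylonitrile-RNA and 218 and 219 in Con-RNA. Of the 43 members, 18 rose and 0 fell (0 lower at an unadjusted p under 0.05, and 0 in DESeq2), where 29.1% of all genes rose and 30.7% fell, and the median log2 fold change was 1.13 for members and −0.07 for all genes.

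All 3 H1 genes tested rose. HIST1H1E had 115 and 129 gene FPM in Con-acrylonitrile-RNA and 36.6 and 35.7 in Con-RNA, a log2 fold change of 2.07 (SE 0.15, adjusted p 8.29e-06). HIST1H1D had 16.3 and 15.4 in Con-acrylonitrile-RNA and 7.07 and 6.23 in Con-RNA (log2 fold change 1.56, SE 0.22, adjusted p 0.000187). HIST1H1C had 29.7 and 26.2 in Con-acrylonitrile-RNA and 15.0 and 11.8 in Con-RNA (1.37, SE 0.19, adjusted p 0.000139). In none of these genes did the groups overlap.

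Of the core histone genes, 8 of 13 H2A genes (median log2 fold change 1.24) and 6 of 8 H3 genes (1.58) rose without s4U, against 1 of 11 H2B genes (HIST1H2BK; family median 0.53) and 0 of 8 H4 genes (−0.63). HIST1H3D, an H3 gene, had 3.99 and 3.12 gene FPM in Con-acrylonitrile-RNA and 0.590 and 1.21 in Con-RNA (log2 fold change 2.31, SE 0.46, adjusted p 0.0015). HIST1H2AD, an H2A gene that overlaps HIST1H3D on the same strand, had 3.81 and 3.12 in Con-acrylonitrile-RNA and 0.253 and 0.931 in Con-RNA, a pooled ratio of 6.11 with a 95% counting interval of 3.14 to 12.6. Because these 2 genes overlap, their fragments can be shared. Among the members of chromosome 1, HIST2H3D had 5.98 and 7.20 in Con-acrylonitrile-RNA and 1.26 and 2.33 in Con-RNA (2.19, SE 0.44, adjusted p 0.00166).

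HIST2H2AB (log2 fold change 1.87, SE 0.52, adjusted p 0.0106) and HIST2H3A (1.83, SE 0.72, adjusted p 0.0498), which lie opposite BOLA1 and HIST2H4B, also rose. HIST1H4C, the H4 gene with most fragments, had 14.9 and 11.5 gene FPM in Con-acrylonitrile-RNA and 26.4 and 29.3 in Con-RNA. Its test did not pass the threshold (log2 fold change −0.75, SE 0.50, adjusted p 0.218), although the groups did not overlap.

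Base composition moved with this comparison. Over all genes, the median log2 fold change of acrylonitrile treatment without s4U was −1.15 in transcripts of up to 40% GC, 0.58 in those of 55 to 60% and 1.70 in those above 65%, and member families had median GC contents of 54.5% (H1), 58.6% (H2A), 56.4% (H2B), 59.1% (H3) and 57.4% (H4). With a spline of GC content in each library, 7 members rose and 0 fell, among them all 3 H1 genes, 2 H2A and 2 H3 genes, where 29.9% of all genes rose and 7.64% fell. With whole-library totals in place of TMM, 9 members rose and 4 fell (11.9 and 50.3% of all genes), and the 4 were the H4 genes HIST1H4B, HIST1H4C, HIST1H4E and HIST1H4H.

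With s4U in the RNA, acrylonitrile treatment again went with more fragments from the H1 genes and also with fewer from H4 genes. Here 19 of 43 members rose and 5 fell, where 31% of all genes rose and 34.1% fell (median log2 fold change 0.66 for members and −0.08 for all genes). HIST1H1E had 49.7 and 51.7 gene FPM in s4U-acrylonitrile-RNA and 17.5 and 14.3 in s4U-RNA (1.96, SE 0.16, adjusted p 6.49e-06). HIST1H1C had 30.2 and 27.5 in s4U-acrylonitrile-RNA and 12.2 and 10.3 in s4U-RNA (1.64, SE 0.18, adjusted p 3.13e-05). HIST1H1D rested on few fragments, 9 and 9 in s4U-acrylonitrile-RNA and 1 and 3 in s4U-RNA, a ratio of 7.78 with a 95% counting interval of 2.56 to 31.6.

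The 5 members that fell were all H4 genes. HIST1H4B had 0.661 and 0.809 gene FPM in s4U-acrylonitrile-RNA and 12.5 and 2.17 in s4U-RNA (log2 fold change −3.04, SE 0.89, adjusted p 0.0122). HIST1H4E had 2.09 and 3.10 in s4U-acrylonitrile-RNA and 25.2 and 5.46 in s4U-RNA (−2.32, SE 0.68, adjusted p 0.0121). HIST1H4C had 17.7 and 15.2 in s4U-acrylonitrile-RNA and 81.2 and 25.5 in s4U-RNA (−1.44, SE 0.45, adjusted p 0.0174). HIST1H4H (−2.14) and HIST1H4A (−1.47) were the other two. In each the lower s4U-RNA library was replicate 2, and it still lay above both s4U-acrylonitrile-RNA libraries.

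HIST2H4A was the H4 gene that went the other way, with 3.09 and 1.62 gene FPM in s4U-acrylonitrile-RNA and 1.20 and 1.51 in s4U-RNA (log2 fold change 1.09, SE 0.42, adjusted p 0.0397). Its near-identical copy HIST2H4B had 2.09 and 2.16 in s4U-acrylonitrile-RNA and 9.38 and 2.63 in s4U-RNA. Only uniquely placed fragments were kept, so fragments of such copies are counted where a base tells them apart, and their separate values are uncertain. The same holds for HIST2H2AA4 (2.86 and 2.83 in s4U-acrylonitrile-RNA, 0.375 and 0.132 in s4U-RNA; ratio of pooled fragments 11.6, counting interval 5.22 to 30.5) and HIST2H3A (ratio 7.21, interval 3.78 to 14.9). HIST1H2AD (ratio 6.65, interval 3.56 to 13.4) and HIST2H2AC (log2 fold change 1.88, SE 0.41, adjusted p 0.00229) were the other members with the largest rises.

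The s4U-RNA libraries decide how many members pass. Without s4U-RNA replicate 1, 25 members rose and 3 fell with acrylonitrile in s4U-fed RNA, and without replicate 2, 17 rose and 12 fell, and HIST1H4B, HIST1H4E and HIST1H4H fell in both. Without s4U-acrylonitrile-RNA replicate 1 no member fell, and without its replicate 2 only 1 did. A GC spline gave 8 higher and 8 lower (29.3 and 13.3% of all genes), 6 of the lower ones from H4, and whole-library totals gave 10 higher and 13 lower (16.8 and 50.4%).

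**Figure D2:**
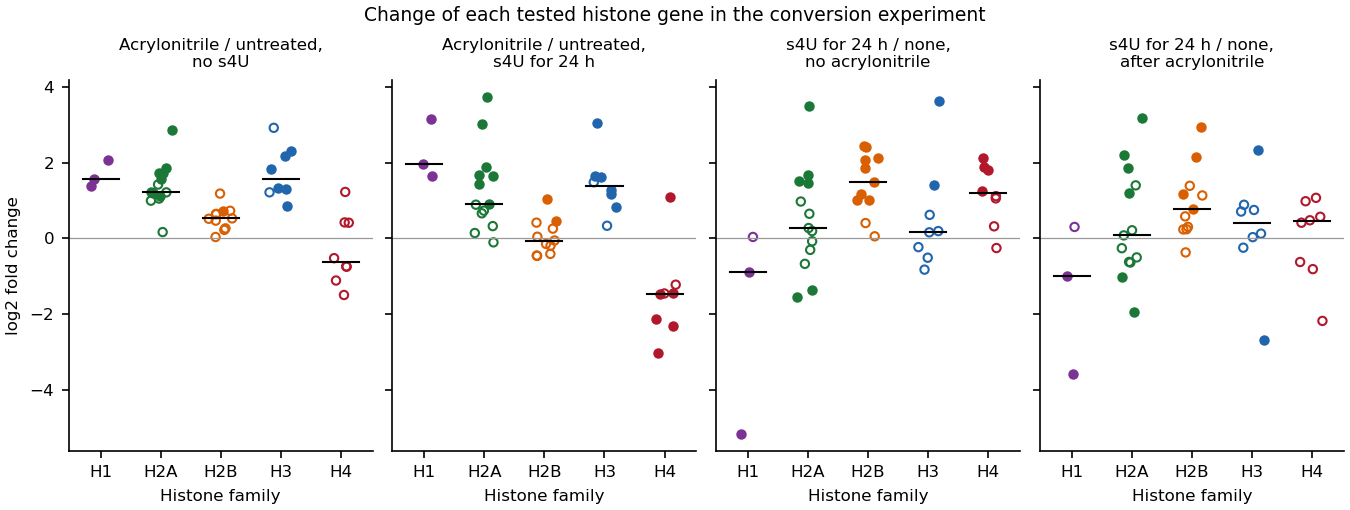
Log2 fold change (y axis) of each tested histone gene by family (x axis) in 4 comparisons: acrylonitrile over no acrylonitrile without s4U and with s4U, and s4U over no s4U without and after acrylonitrile. Filled points passed an adjusted p of 0.05 and black lines are family medians, which in the first panel lie highest for H3 (1.58) and lowest for H4 (−0.63).

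Feeding s4U for 24 h went with lower levels of 2 of the H1 genes and higher levels of H2B genes. Without acrylonitrile, 19 of 43 members rose and 4 fell in s4U-RNA relative to Con-RNA, where 35.8% of all genes rose and 34.7% fell (median log2 fold change 0.97 for members and 0.02 for all genes). HIST1H1D had 1 and 3 fragments in s4U-RNA (0.0751 and 0.197 gene FPM) and 84 and 67 in Con-RNA (7.07 and 6.23 gene FPM). The pooled ratio was 0.0210, or 47.6-fold lower with a counting interval of 18.2 to 177 (edgeR adjusted p 1.86e-06).

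HIST1H1E had 17.5 and 14.3 gene FPM in s4U-RNA and 36.6 and 35.7 in Con-RNA (log2 fold change −0.89, SE 0.15, adjusted p 0.000498). HIST1H1C did not pass, at 12.2 and 10.3 in s4U-RNA and 15.0 and 11.8 in Con-RNA (0.04, SE 0.18, adjusted p 0.866). Of the H2A genes, HIST1H2AB (−1.55, SE 0.47, adjusted p 0.0135) and HIST2H2AC (−1.35, SE 0.39, adjusted p 0.0101) fell.

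Of 11 H2B genes, 9 rose and 0 fell (family median 1.49). HIST1H2BK had 93.4 and 87.6 gene FPM in s4U-RNA and 19.9 and 21.4 in Con-RNA (log2 fold change 2.42, SE 0.13, adjusted p 4.05e-07). The H2A gene HIST1H2AC had 31.1 and 26.6 in s4U-RNA and 3.37 and 2.79 in Con-RNA (3.51, SE 0.20, adjusted p 4.13e-07). In both genes the lowest s4U-RNA library was more than 4 times the highest Con-RNA library.

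Other large rises were those of HIST1H2BO (8.26 and 5.33 in s4U-RNA, 1.26 and 1.77 in Con-RNA), HIST1H2BC (14.1 and 4.93, against 2.78 and 2.61) and HIST2H4B (9.38 and 2.63, against 1.43 and 1.95). Their log2 fold changes were 2.45 (SE 0.35), 2.12 (SE 0.48) and 2.13 (SE 0.64). HIST1H3E, an H3 gene, had 3 and 28 fragments in s4U-RNA and 1 and 1 in Con-RNA, a pooled ratio of 12.3 (counting interval 3.13 to 106). That ratio rests on 1 of the 2 s4U-RNA libraries.

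For the H4 genes the s4U-RNA libraries disagreed: their summed level was 156 and 47.1 gene FPM in s4U-RNA and 55.9 and 57.7 in Con-RNA, although 4 of 8 passed as higher (HIST2H4B, HIST1H4E, HIST1H4H and HIST1H4C). Without s4U-RNA replicate 1, 13 members rose and 8 fell, and without replicate 2, 28 rose and 2 fell. HIST1H1D and HIST1H1E were lower in both.

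After acrylonitrile, 9 of 43 members rose and 5 fell in s4U-acrylonitrile-RNA relative to Con-acrylonitrile-RNA (33.2 and 31.1% of all genes, median log2 fold change 0.30 for members and 0.05 for all genes). HIST1H1D again lay lower, at 0.992 and 1.21 gene FPM in s4U-acrylonitrile-RNA and 16.3 and 15.4 in Con-acrylonitrile-RNA (−3.59, SE 0.29, adjusted p 5.00e-06). HIST1H1E had 49.7 and 51.7 in s4U-acrylonitrile-RNA and 115 and 129 in Con-acrylonitrile-RNA (−1.01, SE 0.15, adjusted p 0.000231), and HIST1H1C 30.2 and 27.5 against 29.7 and 26.2 (0.30, SE 0.18, adjusted p 0.164). HIST2H3D (−2.68, SE 0.52), HIST1H2AB (−1.94, SE 0.52) and HIST2H2AC (−1.03, SE 0.36) were the other members that fell.

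The members that rose after acrylonitrile were HIST1H2AK (3.18), HIST1H2BO (2.95), HIST1H3E (2.33), HIST1H2AC (2.22), HIST1H2BK (2.15), HIST2H2AA4 (1.86), HIST3H2A (1.20), HIST1H2BJ (1.18) and HIST1H2BD (0.78), as log2 fold changes. HIST1H2BK had 101 and 104 gene FPM in s4U-acrylonitrile-RNA and 26.1 and 29.3 in Con-acrylonitrile-RNA, and HIST1H2AC 22.9 and 21.2 against 5.80 and 5.52. HIST1H2AK had 4.85 and 6.20 in s4U-acrylonitrile-RNA and 0.906 and 0.480 in Con-acrylonitrile-RNA (ratio 7.55, counting interval 3.52 to 19.3). HIST1H3E had 19 and 24 fragments in s4U-acrylonitrile-RNA and 3 and 3 in Con-acrylonitrile-RNA (ratio 4.21, interval 1.78 to 12.1).

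**Figure D3:**
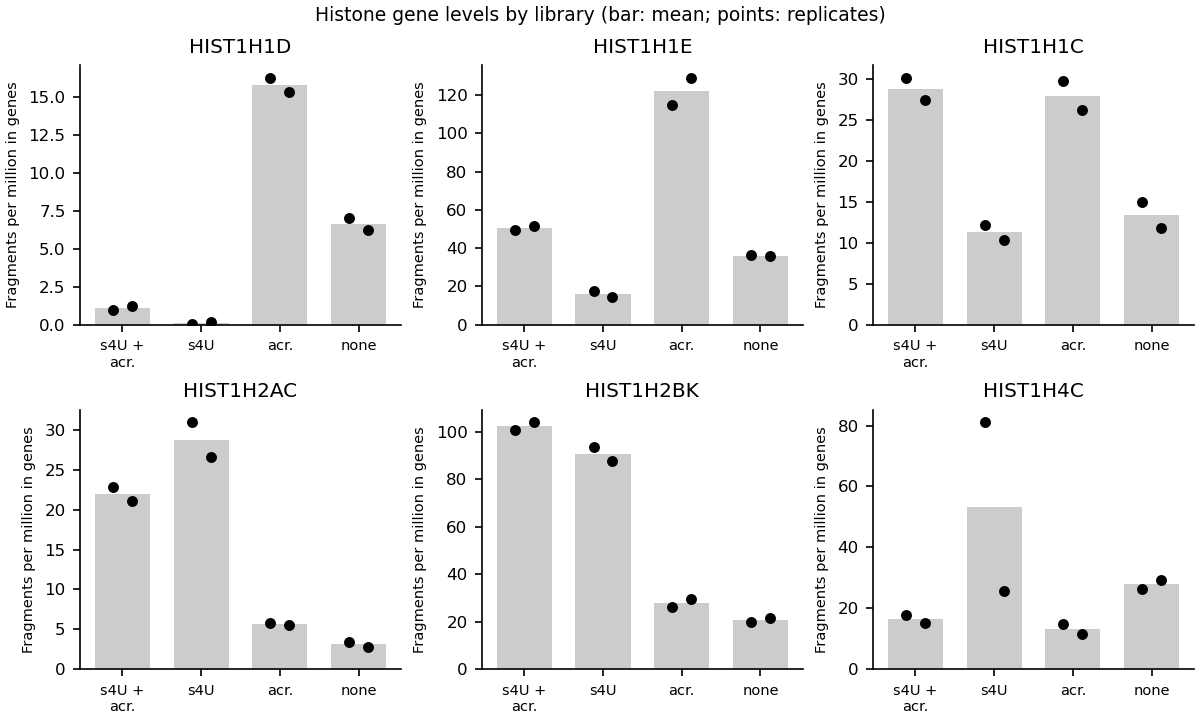
Level (gene FPM, y axis: fragments per 1000000 fragments in genes) of HIST1H1D, HIST1H1E, HIST1H1C, HIST1H2AC, HIST1H2BK and HIST1H4C in s4U-acrylonitrile-RNA, s4U-RNA, Con-acrylonitrile-RNA and Con-RNA. Bars are means of 2 libraries and points are the libraries, and the HIST1H4C points in s4U-RNA lie at 81.2 and 25.5 while those of HIST1H2BK in s4U-RNA lie at 93.4 and 87.6.

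Members whose annotated gene closes with AATAAA took a larger share of histone fragments in the s4U-fed groups, with 45.4 and 44.2% in s4U-acrylonitrile-RNA and 46.0 and 59.1% in s4U-RNA, against 20.9 and 22.1% in Con-acrylonitrile-RNA and 27.8 and 26.0% in Con-RNA. Most of these fragments came from HIST1H2BK in s4U-acrylonitrile-RNA, with 913 of 1589 and 772 of 1294. Without acrylonitrile, 8 of 12 such members rose with s4U and 0 fell (median log2 fold change 1.33), against 11 and 4 of the 31 others (0.41). After acrylonitrile, 5 of 12 rose and 0 fell (0.84), against 4 and 5 of 31 (0.13). The difference between these classes was not tested.

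GC content moved with the s4U comparison too: over all genes the median log2 fold change without acrylonitrile was 0.35 in transcripts of up to 40% GC, −0.20 at 55 to 60% and −1.02 above 65%. With the GC spline 24 members rose and 2 fell without acrylonitrile (43.8 and 27.8% of all genes), and 13 rose and 3 fell after it (37.3 and 27.3%). HIST1H1D then still lay lower in both comparisons (−4.94 and −3.52), whereas HIST1H1E no longer passed (−0.15, adjusted p 0.492, and −0.45, adjusted p 0.0537). HIST1H2BK (2.99 and 2.53) and HIST1H2AC (4.11 and 2.63) remained past the threshold with it.

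Whether acrylonitrile acted differently in fed and unfed RNA was tested by the interaction of both factors, which 0 members passed in either direction, where 1.28 and 0.354% of all genes did. With whole-library totals 0 members passed as well, where 0.819 and 0.106% of all genes did. DESeq2 likewise called 0 members, and 4 members had an unadjusted p under 0.05 in edgeR. Without s4U-RNA replicate 2, however, 17 members fell in this difference, and without s4U-RNA replicate 1 HIST2H3A rose and HIST1H2AC fell.

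The marked share is the percentage of a gene's fragments that carry at least 1 mismatch of the counted kind (read as T-to-C as the study describes it). The study reads such fragments as RNA made during the 24 h of feeding. New RNA without a converted base counts as unmarked and background mismatches count as marked, so the share is no direct measure of RNA made. All 16 members counted (20 or more fragments in every library) had a higher marked share in s4U-acrylonitrile-RNA than in Con-acrylonitrile-RNA, as had 99.9% of all 12058 genes tested (0% were lower). The member median was 91.8% in s4U-acrylonitrile-RNA (SD 0.870 between the 2 library medians) and 7.58% in Con-acrylonitrile-RNA, close to the all-gene medians of 91.3 and 7.41%. With fragments of at least 2 mismatches, the s4U-acrylonitrile-RNA medians were 77.8% for members and 78.0% for all genes.

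HIST1H1E had the lowest marked share of the 16, with 71.2 and 59.5% of 451 and 383 fragments in s4U-acrylonitrile-RNA (65.4 ± 8.23%, SD, n = 2) and 2.37 and 2.97% in Con-acrylonitrile-RNA. HIST1H1C followed, with 81.8 and 77.5% in s4U-acrylonitrile-RNA (79.6 ± 3.04%) and 22.6 and 27.5% in Con-acrylonitrile-RNA. HIST1H1C also had 63.8 and 35.0% in s4U-RNA, where no acrylonitrile was used, and 28.7 and 33.1% in Con-RNA, and these marked fragments were not subtracted here. HIST1H2BK was next at 84.7 ± 0.888%, against 4.86 and 8.20% in Con-acrylonitrile-RNA. At the high end stood HIST1H4C (95.9 ± 0.494%, against 14.6 and 12.5%), HIST1H3H (95.2 ± 3.33%) and HIST1H2AG (94.5 ± 1.10%).

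**Figure D4:**
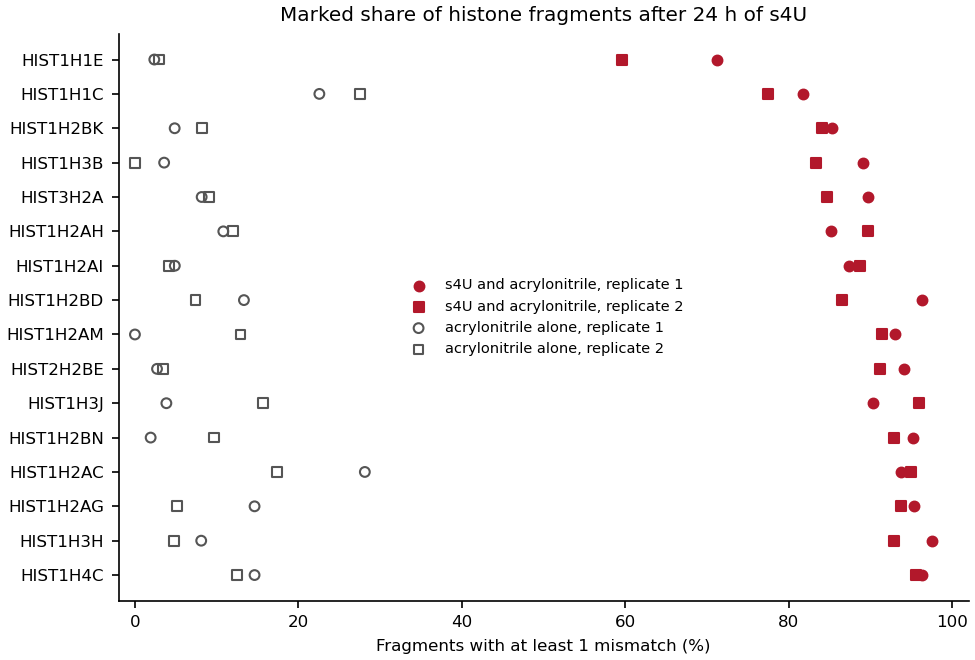
Percentage of fragments with at least 1 mismatch (x axis) in the 16 histone genes with at least 20 fragments in every library, with filled points for s4U-acrylonitrile-RNA and open points for Con-acrylonitrile-RNA (2 libraries each). HIST1H1E is lowest at 71.2 and 59.5%, and HIST1H1C has the high background of 22.6 and 27.5%.

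The near-identical copies on chromosome 1 had few fragments, and their pooled marked shares in s4U-acrylonitrile-RNA were 97.5% of 40 fragments for HIST2H4A, 97.1% of 35 for HIST2H4B, 100% of 47 for HIST2H2AA4, 88.0% of 50 for HIST2H2AA3, 94.0% of 50 for HIST2H3A, 93.0% of 43 for HIST2H3C and 78.6% of 14 for HIST2H3D. In Con-acrylonitrile-RNA the same genes had 28.6, 11.1, 11.1, 15.4, 14.3, 18.8 and 4.76% in this order, of 9 to 63 fragments.

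In the 2 libraries fed s4U for 1 h without PDP, the labeled share gives a half-life under the study's formula, t1/2 = −T ln 2/ln(1 − labeled/total) with T of 60 min, which returned the deposited half-life values. Over the 37 members with a value the median was 2.96 h (SD 0.0761 between libraries), against 3.17 h (SD 0.0214) over 12811 protein-coding genes. The order of these medians turned with 1 library: they were 3.08 h for members and 3.11 h for protein-coding genes without PDP-0-RNA replicate 1, and 3.18 and 3.14 h without replicate 2. The shortest were those of HIST1H3H (1.43 ± 0.206 h, SD, n = 2), HIST1H1C (1.83 ± 0.0107 h) and HIST1H2AC (2.04 ± 0.272 h). Those of HIST1H2BL (15.6 and 4.50 h), HIST1H2BF (9.35 and 5.19 h) and HIST1H2BO (4.50 and 9.70 h) were the longest, and their replicates differed by more than 1.5 times. They rest on 1 and 2, 1 and 2, and 5 and 2 labeled fragments in this order, too few to rank them.

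HIST1H1E, with far more fragments, had 5.07 and 6.02 h (114 labeled of 892 fragments and 103 of 947). Its half-life in both libraries was longer than the member median. The formula takes every mismatch as label, although 7.63% of fragments over all genes, 24.5% of those of HIST1H1C and 23.6% of those of HIST1H2AC carried one after acrylonitrile without s4U. With the all-gene background subtracted, the median half-life became 4.92 h for 32 members and 5.19 h for 12235 protein-coding genes, and with each gene's own background 4.49 h for 33 members and 5.23 h for 12218 protein-coding genes. With its own background subtracted, HIST1H1C had 9.47 and 9.78 h and HIST1H2AC 22.5 and 8.75 h, so neither was then among the shortest, while HIST1H3H had 1.62 and 2.05 h. In HIST1H2BL and HIST1H2BO the labeled share lay below the gene's own background.

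The PDP experiment asked how the drug changes RNA made within 1 h. Labeled RNA, the fragments with a mismatch, was tested on counts scaled to the whole library, over 14236 genes. At 8 µM PDP, 8 of 33 members rose and 0 fell (1 lower at an unadjusted p under 0.05, and 0 in DESeq2), where 10.4% of all genes rose and 27.3% fell, and the median log2 fold change was 0.39 for members and −0.11 for all genes (−0.38 for genes of 55 to 60% GC). Most of the H4 genes were among them, with 4 of 5 higher (family median 1.42), against 3 of 9 H2B, 1 of 9 H2A, 0 of 7 H3 and 0 of 3 H1 genes. Genes were kept on a mean of at least 0.5 labeled FPM over all 6 libraries. HIST2H4A, HIST2H4B and HIST1H2BO averaged under 0.5 at 0 µM and entered only through the treated libraries, so the filter favoured a rise in them.

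HIST1H4C, with 0.819 and 1.23 labeled FPM at 0 µM, 1.76 and 1.93 at 4 µM and 1.97 and 3.70 at 8 µM, was higher in every treated library than in every untreated one (log2 fold change at 8 µM 1.42, SE 0.33, adjusted p 0.000144). Its pooled labeled share at 0 µM was 18.75%, against 13.8% marked in Con-acrylonitrile-RNA. That background was not subtracted, so its labeled level is not a measure of new RNA alone. HIST1H2BD had 0.921 and 0.852 labeled FPM at 0 µM, 1.76 and 2.11 at 4 µM and 3.04 and 3.16 at 8 µM (1.80, SE 0.33, adjusted p 9.77e-07). Both libraries at 8 µM lay above both at 4 µM, which lay above both at 0 µM. HIST4H4, the H4 gene of chromosome 12, had 0.921 and 0.568 at 0 µM, 1.35 and 0.851 at 4 µM and 1.48 and 1.80 at 8 µM (1.13, SE 0.40, adjusted p 0.0174).

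The copies HIST2H4A and HIST2H4B, which share their stem-loop run, had the largest rises, from few fragments. HIST2H4B had 0.205 and 0.284 labeled FPM at 0 µM, 0.946 and 1.03 at 4 µM and 1.48 and 1.90 at 8 µM. At 8 µM that is 68 fragments against 5 at 0 µM, a ratio of 6.79 with a counting interval of 2.77 to 21.6. HIST2H4A had 0.512 and 0.284 at 0 µM, 0.901 and 0.761 at 4 µM and 1.79 and 2.07 at 8 µM (78 fragments against 8, ratio 4.87, interval 2.35 to 11.7). In both copies every treated library exceeded the untreated ones.

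The other rises at 8 µM were those of HIST1H2BO (ratio 2.78, counting interval 1.23 to 7.37), HIST1H2AI (log2 fold change 1.07, SE 0.37, adjusted p 0.0141) and HIST2H2BE (0.84, SE 0.30, adjusted p 0.0187). In HIST1H2BO the pooled labeled share at 0 µM (10.9%) lay below the marked share in Con-acrylonitrile-RNA (11.8% of 17 fragments). The H1 genes did not pass at 8 µM. HIST1H1E had 11.7 and 9.75 labeled FPM at 0 µM, 13.1 and 7.35 at 4 µM and 10.1 and 8.27 at 8 µM, with ranges that overlap, and HIST1H1C had 8.09 and 8.14, 7.93 and 8.96, and 8.00 and 8.98. The pooled labeled share of HIST1H1C was 31.5, 30.1 and 29.9% at 0, 4 and 8 µM. Its marked share without s4U was 30.5% in Con-RNA and 24.5% in Con-acrylonitrile-RNA, so its labeled level says little about RNA made within 1 h. HIST1H2BK lay lower in treated libraries, at 5.83 and 5.87 labeled FPM at 0 µM, 3.47 and 4.17 at 4 µM and 4.52 and 4.03 at 8 µM, but passed at 4 µM (−0.61, SE 0.20, adjusted p 0.00977) and not at 8 µM (−0.45, SE 0.20, adjusted p 0.0576).

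At 4 µM, 2 of 33 members rose and 2 fell (9.24 and 19.8% of all genes; median log2 fold change 0.02 for members and −0.03 for all genes). HIST2H4B (1.98, SE 0.58, adjusted p 0.00449) and HIST1H2BD (1.12, SE 0.36, adjusted p 0.0101) rose, and HIST1H2BK and HIST3H2BB (−1.27, SE 0.49, adjusted p 0.0391) fell. HIST3H2BB had 1.23 and 0.757 labeled FPM at 0 µM, 0.496 and 0.314 at 4 µM and 1.48 and 0.708 at 8 µM, and both 4 µM libraries lay below all others.

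These calls depend on the fit and on single libraries. DESeq2 called HIST1H2BD, HIST1H4C, HIST2H4A and HIST2H4B at 8 µM and no member at 4 µM, while TMM scaling gave 9 higher at 8 µM (17.1% of all genes) and a GC spline 12 (8.70%). Without PDP-0-RNA replicate 2 or without PDP-8-RNA replicate 2, 5 members rose at 8 µM, and without PDP-0-RNA replicate 1 no member passed at 4 µM. Between the doses, 4 members were higher at 8 than at 4 µM (HIST3H2BB, HIST2H4A, HIST1H2AI and HIST1H2BD) and 0 lower (0 also at an unadjusted p under 0.05 and in DESeq2), where 0.738% of all genes were higher and 4.87% lower.

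**Figure D5:**
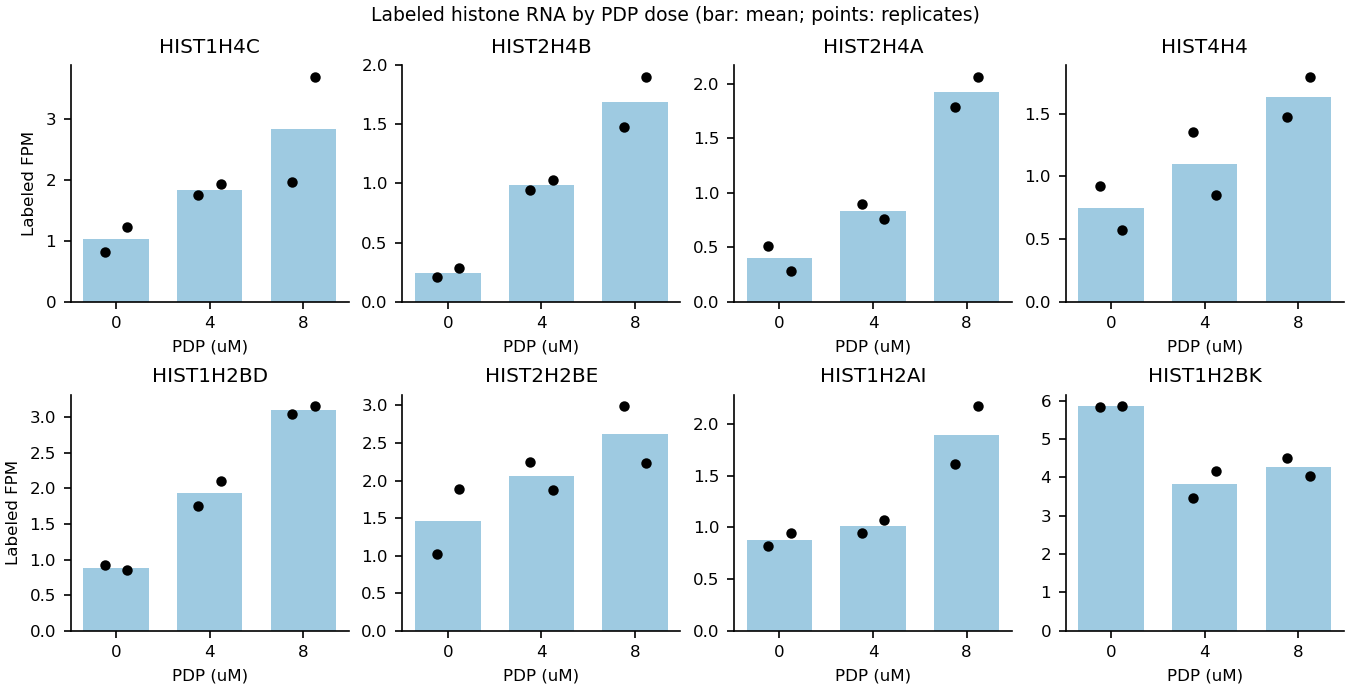
Labeled level (FPM, y axis) of HIST1H4C, HIST2H4B, HIST2H4A, HIST4H4, HIST1H2BD, HIST2H2BE, HIST1H2AI and HIST1H2BK at 0, 4 and 8 µM PDP (x axis), with bars for the mean of 2 libraries and points for the libraries. HIST1H2BD climbs over the doses to 3.04 and 3.16 FPM at 8 µM, and HIST1H2BK is highest at 0 µM (5.83 and 5.87 FPM).

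Total histone RNA also lay higher with PDP, against a background in which most genes did. Members summed to 315 and 320 FPM at 0 µM, 388 and 343 at 4 µM and 403 and 402 at 8 µM. At 8 µM, 23 of 42 members rose and 0 fell (0 lower at an unadjusted p under 0.05, and 0 in DESeq2), where 51.8% of all 15473 genes rose and 8.71% fell (median log2 fold change 0.52 for members and 0.33 for all genes). At 4 µM, 17 of 42 rose and 0 fell (0 lower at an unadjusted p under 0.05, and 1 in DESeq2; 51.4 and 6.99% of all genes; 0.35 and 0.32). With TMM scaling, which brought the all-gene median to 0.02 and 0.01, 10 members rose and HIST1H1E and HIST1H2BK fell at 8 µM (26.8 and 27% of all genes), and 4 rose and 4 fell at 4 µM (25.2 and 26.2%).

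The H4 genes had the highest family median, with 6 of 7 higher at 4 µM (0.94) and at 8 µM (0.88), where the H1 genes had 0 of 3 at both. Genes were kept on a mean of at least 1 total FPM over all 6 libraries. HIST2H4A and HIST2H4B are among the 7 and averaged under 1 at 0 µM. They entered only through the treated libraries, so the filter favoured a rise in them, as in the labeled test. Under TMM scaling 4 of 7 H4 genes were higher at 8 µM and 2 at 4 µM. Summed H4 levels were 15.8 and 17.7 FPM at 0 µM, 29.2 and 31.9 at 4 µM and 33.4 and 40.9 at 8 µM, with no overlap between untreated and treated libraries. Those of H1 were 128 and 126, 145 and 104, and 144 and 117 FPM, with overlap.

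HIST1H4C had 5.22 and 5.77 total FPM at 0 µM, 10.4 and 12.2 at 4 µM and 11.9 and 17.0 at 8 µM (log2 fold change 1.04 at 4 µM, SE 0.18, adjusted p 7.04e-06, and 1.38 at 8 µM, SE 0.18, adjusted p 2.73e-08). The H3 gene HIST1H3B had 4.09 and 6.25 at 0 µM, 9.82 and 8.82 at 4 µM and 10.6 and 13.2 at 8 µM (1.18 at 8 µM, SE 0.17, adjusted p 4.72e-07). HIST1H2BD had 4.71 and 4.54, 7.57 and 8.24, and 9.66 and 9.36 (1.04 at 8 µM, SE 0.17, adjusted p 2.35e-06). HIST2H4A (1.97), HIST1H3A (1.61) and HIST2H4B (1.51) had the largest log2 fold changes at 8 µM, from levels of 0.512 to 1.02 FPM at 0 µM. All of these averaged under 1 total FPM at 0 µM and entered the test only through the treated libraries. The filter therefore favoured a rise in them at both doses. At 4 µM the largest were those of HIST2H4A (1.23), HIST1H4E (1.10), HIST1H4C, HIST2H4B (0.94), HIST1H2BF (0.93) and HIST1H3B (0.84). HIST1H1E did not pass on this scale (0.00 at 8 µM, SE 0.10, adjusted p 0.972).

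The labeled share compares labeled with unlabeled fragments of the same gene in one library. Its median over members was 20.0 and 21.5% at 0 µM, 18.2 and 16% at 4 µM and 22.6 and 20.3% at 8 µM, while the median over all genes was 21.6 and 21.7%, 17.0 and 16.7%, and 15.6 and 16.4%. At 8 µM, 2 of 33 members had a higher share and 3 a lower one, where 0.653% of all genes were higher and 53.7% lower. At 4 µM 0 were higher and 5 lower (0.267 and 45.6%).

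HIST1H2BD had labeled shares of 19.6 and 18.8% at 0 µM, 23.2 and 25.5% at 4 µM and 31.5 and 33.7% at 8 µM (log2 odds 1.02 at 8 µM, SE 0.40, adjusted p 0.0239). HIST2H4B had 20 and 37.5%, 65.6 and 52.3%, and 66.0 and 66.0% (2.31, SE 0.82, adjusted p 0.0124). Its share at 0 µM rests on 5 labeled of 18 fragments. The genes were those of the labeled test, which HIST2H4B entered only through the treated libraries, so the filter favoured a higher share in it. HIST1H4C had 15.7 and 21.3%, 17.0 and 15.8%, and 16.5 and 21.7%, with ranges that overlap at all 3 doses: its labeled and total levels both lay higher.

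HIST1H2BK had 15.2 and 17.4% at 0 µM, 9.94 and 11% at 4 µM and 12 and 10.7% at 8 µM (−0.73, SE 0.20, adjusted p 0.0014 at 4 µM, and −0.59, SE 0.20, adjusted p 0.00758 at 8 µM). HIST1H3H (41.7 and 35.6%, 20.8 and 18.4%, 22.1 and 22.2%) and HIST1H2BJ (33.3 and 21.4%, 13.3 and 13.2%, 14.9 and 11.3%) fell at both doses. At 0 µM their shares rest on few labeled fragments, 10 of 24 and 16 of 45 for HIST1H3H and 12 of 36 and 9 of 42 for HIST1H2BJ. The calls of both depend on single libraries at 0 µM. HIST3H2BB (−1.55) and HIST2H2BF (−1.20) fell at 4 µM. Unlabeled histone RNA, tested after the data had been seen, was higher in 20 of 37 members at 8 µM and 16 at 4 µM and lower in 0, where 60.1 and 59.5% of all genes were higher and 5.75 and 4.55% lower.

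Fragments in the 4000 bases past each gene were deposited to show transcription beyond the polyadenylation site. Of 43 members with such a fragment, 18 had a neighbouring gene on the same strand inside the window, and those windows held 1113 of 1291 fragments (86.2%). HIST2H2AB had 10 and 20, 50 and 42, and 66 and 41 downstream fragments at 0, 4 and 8 µM, while its neighbour HIST2H2BE had 10 and 20, 50 and 42, and 67 and 41 labeled fragments. HIST2H2AB was the 1 member of 7 called at 8 µM (0.83, SE 0.31, adjusted p 0.0238; 11.5% of 2173 genes were higher and 24.3% lower), and 0 were called at 4 µM (6.86 and 18.2%; 0 at an unadjusted p under 0.05, and 0 in DESeq2). HIST1H4C, which has no such neighbour, had 0 and 0, 2 and 3, and 11 and 11 downstream fragments at 0, 4 and 8 µM, below the level tested. These were 0.0901 and 0.134 FPM at 4 µM and 0.492 and 0.599 FPM at 8 µM. The stem-loop site of HIST1H4C lies past its annotated end and so inside this window, and these fragments need not be read-through.

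Under the study's rule for transcripts lowered by PDP, which asks for a 1.5-fold difference in labeled level in every replicate and at both doses, 25 members were eligible, 0 were lowered, and HIST1H4C and HIST1H2BD were raised, where 9.76% of 6844 eligible protein-coding genes were lowered and 0.833% raised. With a lower fold limit HIST1H2BK was lowered and HIST4H4 was raised besides those, where 27.7% of the protein-coding genes were lowered and 3.07% raised. With levels in FPM, not divided by transcript length, 15 members were eligible and 0 were lowered or raised (6.69 and 1.7% of 10475 protein-coding genes). The ratios are the same in either unit and only eligibility changed. HIST1H4C (0.819 and 1.23 labeled FPM at 0 µM) and HIST1H2BD (0.921 and 0.852) then fell short of the untreated labeled level that the rule asks for, so they were not judged. Their reference transcripts were 405 and 486 bases long, while the annotated gene of HIST1H2BD spans 13229. Eligibility in FPKM, and so both raised calls, depends on the length used. With a G-quadruplex motif within 2000 bases of the start, 2 of 11 members tested rose in labeled RNA at 8 µM and 0 fell (median 0.21), and without one 6 of 22 rose and 0 fell (0.46). The difference between these classes was not tested.

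Genes that make or handle histone mRNA were listed for context. Labeled SLBP, the stem-loop binding protein, fell at 4 µM PDP (log2 fold change −0.64, SE 0.09, adjusted p 1.06e-09) and at 8 µM (−0.94, SE 0.10, adjusted p 2.60e-18), as did its total level (−0.38 and −0.30). NPAT, the coactivator of histone gene transcription, rose in total RNA at 8 µM (0.67, SE 0.14, adjusted p 8.04e-05) and did not pass in labeled RNA (0.13, adjusted p 0.684). CASP8AP2, which acts with NPAT in the histone locus body, rose in total RNA (0.85, adjusted p 4.03e-07), and LSM10 of the U7 snRNP did not pass (0.18, adjusted p 0.0834).

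Of the 16 synthesis and processing factors tested, 1 rose and 5 fell in labeled RNA at 8 µM (10.4 and 27.3% of all genes), and 9 rose and 1 fell in total RNA (51.8 and 8.71%). Among the histone variants listed as replication-independent, 0 of 10 rose and 3 fell in labeled RNA at 8 µM, among them H2AFX (−1.11, SE 0.07, adjusted p 1.11e-40), while 7 of 11 rose and 2 fell in total RNA. Of the histone chaperones, 2 of 13 rose and 3 fell in labeled RNA, and of the S phase genes 4 of 17 rose and 6 fell. With s4U feeding alone, where 35.8% of all genes rose and 34.7% fell, 5 of 11 variants rose and 2 fell, 8 of 16 factors rose and 2 fell, 4 of 13 chaperones rose and 3 fell, and 3 of 17 S phase genes rose and 5 fell.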

How the data were processed

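Polyadenylated RNA of HEK293T cells was sequenced in 8 libraries of the conversion experiment and 6 of the PDP experiment. Per the methods and the submitters' notes, the authors trimmed reads with cutadapt 1.18, kept 1 read per identical sequence, removed rRNA reads, aligned the rest to GRCh37 with HISAT2 2.1.0, kept uniquely mapped proper pairs and left out known variants and low-quality mismatches, with genes from GENCODE v19. The deposited tables hold fragment counts per gene and number of mismatches (other text pairs) and, for the PDP libraries, fragment counts and FPM, which are RPM values over the whole library made by the authors. The deposited half-life column was not used as a value. The mismatch type is not named in the tables.

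Counts were tested with edgeR 4.0.16 (quasi-likelihood, Benjamini-Hochberg over all genes, adjusted p under 0.05) in R 4.3.3, with TMM factors for the conversion experiment and whole-library sizes for PDP. Genes needed to pass edgeR's filterByExpr (conversion) or a mean of 1 FPM (total) or 0.5 FPM (labeled, windows), and marked shares 20 fragments in each library. Shares were fitted with a term for each library. Alternatives were DESeq2 1.42.0, limma 3.58.1, other scalings, no filter, a GC spline (6 degrees of freedom), a replicate block and leaving out each library. Intervals of pooled ratios are exact at 95%. Tables were joined in Python 3.11.15 with pandas 2.3.3 and SciPy 1.17.1, and figures drawn with Matplotlib 3.10.9. Tests were tried on simulated data first.

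Of the members, 43 were tested in the conversion experiment, 42 in total and 33 in labeled RNA. Genes named are the 12 with most total FPM at 0 µM PDP, up to 6 with the largest rise and fall in each comparison, the 3 lowest and highest shares and half-lives, the near-identical copies, members of counts of 5 or fewer, and up to 4 genes of each context list. HIST1H2BJ and HIST1H2BD in the s4U comparison, HIST1H4C where it did not pass, and the 8 sequences were chosen after values were seen. Members and lists were chosen with earlier results of these data known. Promoter sequences came from RefSeq (GRCh38.p14), matched for 66 members.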

Additional observations from a re-analysis of the deposited data

Results flagged for a closer look

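The effect of PDP on labeled RNA differed between 8 and 4 µM in 4 histone genes by the test of the difference itself (edgeR's quasi-likelihood test on all 14236 genes). The log2 difference, 8 over 4 µM, was 1.46 for HIST3H2BB (SE 0.40, adjusted p 0.0121), 1.199 for HIST2H4A (SE 0.30, adjusted p 0.00458), 0.8831 for HIST1H2AI (SE 0.29, adjusted p 0.0451) and 0.6777 for HIST1H2BD (SE 0.22, adjusted p 0.0462). In each of these genes both libraries at 8 µM exceeded both at 4 µM. DESeq2 called 0 members (in edgeR 11 had an unadjusted p under 0.05), TMM scaling and the GC spline called all but HIST1H2AI, and without PDP-4-RNA replicate 2 no member passed.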

How the results depend on the processing

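Alternatives to each choice were listed with the design, and the unlabeled RNA test and the GC spline for the PDP comparisons were chosen after seeing the data. No call of a named gene changed sign, but the order of the half-life medians turned without PDP-0-RNA replicate 2, and total HIST1H1E and HIST1H2BK at 8 µM, which did not pass (0.00 and 0.06), fell with TMM (−0.30, adjusted p 0.0156, and −0.24, adjusted p 0.0242). For acrylonitrile without s4U (18 higher, 0 lower), whole-library totals gave 9 and 4, the GC spline 7 higher, and no filter on low counts 3 lower. For acrylonitrile with s4U (19 and 5), whole-library totals gave 10 and 13 and the GC spline 8 and 8. For s4U without acrylonitrile the GC spline gave 2 lower. For s4U after acrylonitrile no filter gave 15 higher and the GC spline 3 lower. No filter gave 3 members lower in the interaction. A minimum of 10 fragments gave 25 of 25 higher marked shares. For labeled RNA at 8 µM, DESeq2 gave 4 higher, and limma on log2(FPM + 0.1) or log2(FPM + 1) gave 1 lower each. At 4 µM, DESeq2 gave 0 higher and 0 lower, limma with 0.1 gave 4 higher, TMM 1 lower, no filter 1 lower and the GC spline 0 lower. Between the doses, DESeq2 gave 0, limma 0 (with 0.1) or 1 (with 1) and no filter 2 higher. For total RNA at 8 µM, TMM gave 10 higher and 2 lower, DESeq2 5 higher and the GC spline 14 higher, and at 4 µM TMM gave 4 and 4, DESeq2 1 and 1, and the GC spline 5 higher. Downstream windows at 8 µM gave 2 higher with TMM, 0 with DESeq2 and 2 without a filter. Half-life medians became 4.92 h, 4.49 h and, at 10 FPM or more, 2.81 h (5 members, against 3.59 h for 8635 protein-coding genes). The rule for lowered transcripts gave 1 member at the lower fold limit. The cause of each was not tested.

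Leaving out 1 library at a time, the counts higher and lower ran over 11 to 26 and 0 to 3 (acrylonitrile without s4U), 13 to 25 and 0 to 12 (with s4U), 12 to 28 and 2 to 8 (s4U without acrylonitrile), 4 to 14 and 3 to 9 (s4U after acrylonitrile), 0 to 1 and 0 to 17 (interaction), 16 to 16 (marked share), 5 to 8 and 0 to 1 (labeled, 8 µM), 0 to 2 and 0 to 2 (labeled, 4 µM), 0 to 3 and 0 to 1 (between doses), 16 to 23 and 0 to 1 (total, 8 µM), 11 to 18 and 0 to 1 (total, 4 µM), 0 to 1 (downstream, 8 µM), 0 to 1 and 2 to 5 (share, 4 µM) and 0 to 2 and 1 to 3 (share, 8 µM), and half-life medians over 3.08 to 3.18 h. Besides the s4U-RNA libraries, the lows came without Con-acrylonitrile-RNA replicate 1 (11 higher with acrylonitrile, 5 with s4U after it) or replicate 2 (4 with s4U after it), and without Con-RNA replicate 1 (12 higher with s4U). Over single named genes, 447 such results kept their call and 103 lost it.

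Replicate numbers do not pair the samples: correlations of same-numbered deviations were −0.0328 to 0.181 in the conversion and −0.0238 to 0.000705 in the PDP experiment. A replicate block gave 1 member lower in the interaction, and of 81 single results 80 kept their call and 1 lost it. Depth limits the copies on chromosome 1: labeled HIST2H4A and HIST2H4B rest on 8 and 5 fragments at 0 µM. Counting intervals cover counting error only.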
